A study of Mus musculus with 59 samples.

Results

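The olfactory receptor genes (Olfr) and the vomeronasal receptor genes of families 1 and 2 (Vmn1r, Vmn2r) were examined in chromatin and RNA of mouse embryonic stem (ES) cells. Members were all 5 kb windows that overlap the mm10 span of a gene whose symbol starts with Olfr, Vmn1r or Vmn2r. Of the 526765 windows on chromosomes 1 to 19 and X, 3616 were members (receptor windows): 1872 held Olfr genes, 464 held Vmn1r genes and 1281 held Vmn2r genes, with 1 window in more than one family. The families comprised 2073 genes, 607 of them pseudogenes and 20 on chromosome Y, whose 23 windows stayed outside the comparisons. Of the 3616 windows, 3353 overlapped no other gene, and 61 overlapped another gene at or above 1 CPM (counts scaled per mega-read, M, of the library) in RNA of the parental cells. The largest share lay on chromosome 7, with 1061 windows, followed by chromosome 2 with 486 and chromosome 17 with 399.

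The 24 chromatin immunoprecipitation (ChIP) libraries, 16 precipitates and 8 inputs, came from cells of a 129xC57Bl6 hybrid background. All carried Rosa26:BirA, a biotin ligase that acts on the FLAG/Avi tag placed on 1 protein in each precipitated line, and the precipitates were taken with streptavidin beads. In the Microprocessor set, DGCR8 was precipitated after formaldehyde alone and after disuccinimidyl glutarate (DSG, a longer crosslinker), and Dicer and Drosha after DSG, with inputs of the DGCR8 FLAG/Avi line and of the parental Rosa26:BirA cells. The METTL3 set held 2 METTL3 FLAG/Avi clones with 2 precipitates and 1 input each. The knockout set held DGCR8 FLAG/Avi precipitates in wild-type and METTL3KO cells and a wild-type input. The heat set held DGCR8 and METTL3 (lines H4 and H5) precipitates at 37 °C and after 1 h at 42 °C, with inputs at 37 °C only. The RNA came from 35 libraries: floxed DGCR8 (Rosa26:CRE) and floxed Drosha cells with or without 4-hydroxytamoxifen for 24, 48 or 96 h, and Rosa26:BirA, DGCR8 FLAG/Avi cells, called parental in their titles, with METTL3KO lines derived on that genotype, at 37 °C and 42 °C. No precipitate from untagged cells was analysed here. Titles and source names conflicted for 10 ChIP libraries, 4 in the METTL3 set and 6 in the heat set, and the titles were followed. The inputs and precipitates held 13.8 to 86.3 M counted reads. The labels do not say whether precipitates of 1 line were separate cultures, so p-values measure the spread between these libraries, which may be technical.

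Olfactory and vomeronasal receptors are G-protein-coupled receptors of sensory neurons, and each such neuron expresses only a small part of the repertoire. Their genes sit in long tandem clusters of AT-rich sequence that other cell types keep silent. METTL3 is the methyltransferase that writes N6-methyladenosine on RNA, DGCR8 and Drosha form the Microprocessor that cuts primary microRNA transcripts in the nucleus, and Dicer makes the later cut in the cytoplasm. Windows of genes without transcripts are compared here with gene-free windows to describe the background of the pulldowns.

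The sequence at the annotated starts of receptor genes, called the promoter here, was richer in A and T than that of other genes. A few promoters are shown because the precipitate-over-input values at gene starts are given below by this composition. In RefSeq sequences of GRCm38.p6 running from 250 bases before to 50 bases after the gene start, the median share of A and T was 64.3% over 1267 receptor promoters, with 64.0% for 206 Vmn1r and 62.0% for 117 Vmn2r. It was 48.7% for 7325 other silent genes, 38.7% for 9651 expressed genes and 47.3% over all 26794 promoters. Runs of at least 6 bases that are only A or T covered a median of 51 bases in receptor promoters and 10 in all promoters. In the sequences below, 5′ to 3′ on the strand of the gene, capitals mark those runs. Olfr73 (chr2:88035088-88035387, minus strand, 67.7% A and T), Olfr17 (chr7:107097217-107097516, plus strand, 64.3%) and Vmn2r1 (chr3:64081392-64081691, plus strand, 60.7%) stand for the AT-rich majority. Olfr544 (chr7:102488258-102488557, minus strand, 48.3%) is a receptor promoter near the median of all genes, and Pou5f1 (chr17:35505782-35506081, plus strand, 37.3%), which encodes the ES cell factor OCT4, is an expressed gene for contrast.
Olfr73: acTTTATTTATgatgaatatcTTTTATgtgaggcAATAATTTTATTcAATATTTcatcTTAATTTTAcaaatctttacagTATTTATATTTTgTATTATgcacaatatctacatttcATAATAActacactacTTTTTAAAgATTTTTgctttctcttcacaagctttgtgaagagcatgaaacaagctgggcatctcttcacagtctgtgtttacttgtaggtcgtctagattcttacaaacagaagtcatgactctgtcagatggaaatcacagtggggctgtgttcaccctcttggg
Olfr17: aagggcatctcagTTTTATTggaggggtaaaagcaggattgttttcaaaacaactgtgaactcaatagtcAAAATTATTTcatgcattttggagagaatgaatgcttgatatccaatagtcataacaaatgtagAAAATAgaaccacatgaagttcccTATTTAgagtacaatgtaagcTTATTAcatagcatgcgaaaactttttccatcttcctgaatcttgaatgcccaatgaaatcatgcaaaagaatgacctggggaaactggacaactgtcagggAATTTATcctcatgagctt
Vmn2r1: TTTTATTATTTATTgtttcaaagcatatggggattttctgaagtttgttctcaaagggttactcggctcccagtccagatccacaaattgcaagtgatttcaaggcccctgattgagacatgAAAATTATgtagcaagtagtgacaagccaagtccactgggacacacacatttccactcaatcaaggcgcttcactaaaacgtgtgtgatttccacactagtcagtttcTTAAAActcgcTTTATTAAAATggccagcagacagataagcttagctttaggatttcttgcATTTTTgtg
Olfr544: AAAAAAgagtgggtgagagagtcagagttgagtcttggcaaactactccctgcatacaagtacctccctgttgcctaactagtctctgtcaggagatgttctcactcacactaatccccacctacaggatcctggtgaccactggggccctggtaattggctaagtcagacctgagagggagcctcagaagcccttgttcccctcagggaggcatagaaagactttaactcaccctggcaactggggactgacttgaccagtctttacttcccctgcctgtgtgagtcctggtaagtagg
Pou5f1: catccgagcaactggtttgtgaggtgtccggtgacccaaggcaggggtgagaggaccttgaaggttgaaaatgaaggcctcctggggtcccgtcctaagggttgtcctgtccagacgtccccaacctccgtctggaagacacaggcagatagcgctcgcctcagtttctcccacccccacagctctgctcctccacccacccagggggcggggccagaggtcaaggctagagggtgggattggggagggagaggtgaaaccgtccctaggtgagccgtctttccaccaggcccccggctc
The AT-only runs covered 82 bases in Olfr73, 42 in Olfr17, 45 in Vmn2r1, 6 in Olfr544 and 0 in Pou5f1. The last 50 bases shown for Olfr17 and for Olfr73 open with the start codon ATG. The median annotated span was 945 bases for Olfr and 921 for Vmn1r genes. Annotated starts of receptor genes may thus be coding starts, with the sequence before them not a promoter. Whether they are transcription starts was not tested.

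Receptor genes were almost without RNA in these cells. Of 1628 receptor genes in the RNA tables, 901 had no count in any of the 35 libraries, none reached a mean of 1 CPM in parental cells at 37 °C, and 2 reached 1 CPM in any library. All receptor genes together summed to 2.62 CPM in the lowest library, 5.65 in the median and 19.3 in the highest. Olfr985 was the highest receptor, with 18 and 7 counts (1.36 and 0.540 CPM) in the parental libraries at 37 °C, followed by Vmn1r53 with 11 and 4 counts (0.830 and 0.309 CPM). Vmn2r1, a family 2 vomeronasal receptor, had 6 and 3 counts. The 8 ES cell markers were all expressed, from 48.0 CPM for Utf1 to 818 CPM for Tdgf1 in the parental mean. Of 12 genes of olfactory sensory neuron signalling, 3 reached 1 CPM: Ric8b, a chaperone for G-alpha proteins (60.1 CPM), Adcy3, the cilia adenylate cyclase (11.9 CPM), and Cngb1, a subunit of the cyclic nucleotide-gated channel (2.55 CPM). Omp, the marker of mature olfactory neurons, had 0.723 CPM, and Cnga2, the main channel subunit, had none in the parental libraries.

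In the inputs, receptor windows held fewer reads than gene-free windows, those that overlap no annotated gene. Mean CPM per receptor window ran from 0.444 to 0.871 over the 8 inputs, against 1.03 to 1.42 in 249043 gene-free windows, 1.78 to 1.90 in windows of other silent genes and 2.84 to 3.65 in windows of expressed genes. The H4 input of the heat set was the lowest in receptor windows (0.444 CPM), beside 0.604 in the H5 input and 0.596 in the DGCR8 input of that set. Gene-free windows at least 50 kb from any gene (86129 windows, called remote gene-free windows from here) held 0.410 to 0.897 CPM, so they matched receptor windows in input density. Between 7.88% and 14.4% of receptor windows had no read in a given input, and 119 had none in any ChIP library. How reads that match several near-identical receptor copies were treated is not given in the sources used here, so single windows of recent duplicates are uncertain.

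Every precipitate had a higher mean CPM per receptor window than the input it was compared with. That input came from wild-type cells for the METTL3KO precipitate, from 37 °C for the 42 °C precipitates and from the parental cells for Dicer and Drosha. The ratio of mean CPM in the precipitate over mean CPM in the input was 1.02 for Dicer, the lowest, a median of 1.51 over all 16 precipitates and 2.88 for METTL3 of line H4 at 42 °C, the highest. In the METTL3 set the ratios were 1.26 and 1.10 in clone 1 and 1.15 and 1.16 in clone 2. METTL3 of the heat set at 37 °C stood at 2.41 in H4 and 1.80 in H5. DGCR8 stood at 1.39 after formaldehyde, 1.45 after DSG, 1.51 in the wild-type cells of the knockout set and 1.55 at 37 °C in the heat set, and Drosha at 1.70. Gene-free windows as a whole rose less, with ratios from 1.01 to 1.47, and expressed-gene windows were below input in 15 of 16 precipitates, from 0.742 upwards, with DGCR8 at 37 °C in the heat set at 1.10.

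**Figure D1:**
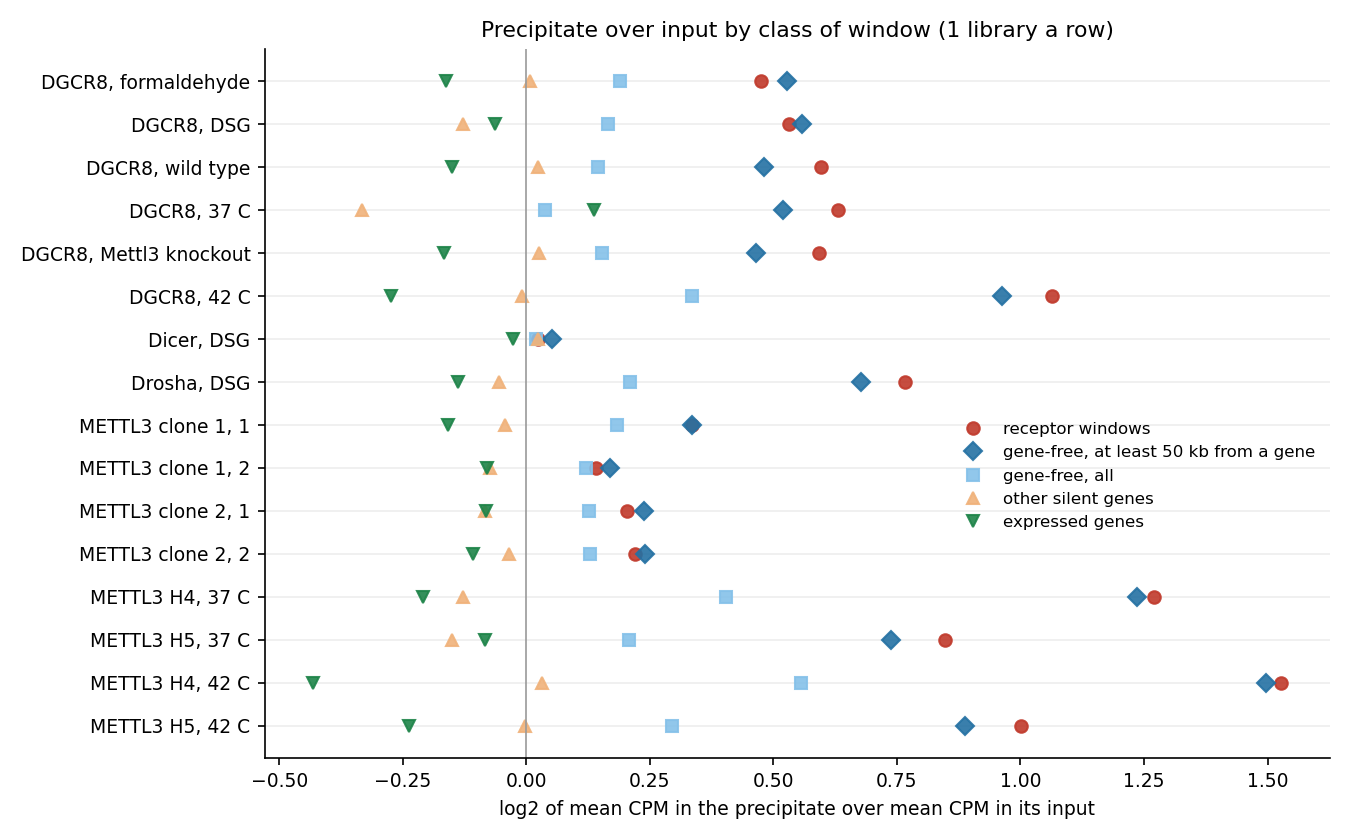
Log2 of mean CPM in each of the 16 precipitates over that in the input it was compared with (x axis; a wild-type input for METTL3KO, 37 °C inputs for 42 °C, the parental input for Dicer and Drosha), by class of window, 1 library a row. Receptor windows (circles) sit to the right of all gene-free windows (squares) in every row, from 0.003 for Dicer to 0.97 for METTL3 H4 at 42 °C, and close to the gene-free windows at least 50 kb from a gene (diamonds).

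Receptor windows gained more than gene-free windows in all 16 precipitates, by a log2 difference between 0.003 (Dicer) and 0.97 (METTL3 H4 at 42 °C). For DGCR8 at 37 °C the difference was 0.29, 0.37, 0.45 and 0.59, or 0.42 ± 0.13 (SD, n = 4 precipitates, 3 sets). For Drosha it was 0.55 and for the 4 METTL3 set precipitates 0.15, 0.02, 0.08 and 0.09, or 0.085 ± 0.054 (SD, n = 4). The METTL3 precipitates of the heat set at 37 °C were at 0.87 and 0.64, above all 4 values of the METTL3 set, which came from other clones and other library depths. For the test, which rests on the same inputs, the log2 ratio of mean CPM in receptor windows over gene-free windows was taken in each library. It averaged -0.47 over the 16 precipitates and -0.90 over the 8 inputs. The difference, averaged over the 4 sets, was 0.40 (exact permutation test within sets, two-sided, p = 7.05e-05 over 56700 permutations, the smallest possible being 1.76e-05; Benjamini-Hochberg adjusted p = 0.000165 over 8 tests).

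Measured against remote gene-free windows, most of this difference was gone. There the difference between precipitates and inputs was 0.045 (exact permutation test, two-sided, p = 0.087; adjusted p = 0.0994), and receptor windows gained more than the remote windows in 10 of 16 precipitates, by -0.05 to 0.13 on the log2 scale. The DGCR8 mean fell from 0.42 to 0.037, Drosha from 0.55 to 0.089, and the METTL3 set mean turned from 0.085 to -0.02. The remote windows themselves stood at 1.04 to 2.82 times input, beside 1.02 to 2.88 for receptor windows. Against windows of other silent genes, the difference was 0.62 (exact permutation test, p = 3.53e-05; adjusted p = 0.000165), and receptor windows gained more in 15 of 16 precipitates, Dicer being the exception at -0.0002. Mean input CPM differed between receptor windows and all gene-free windows, and its part in the difference was not tested.

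**Figure D2:**
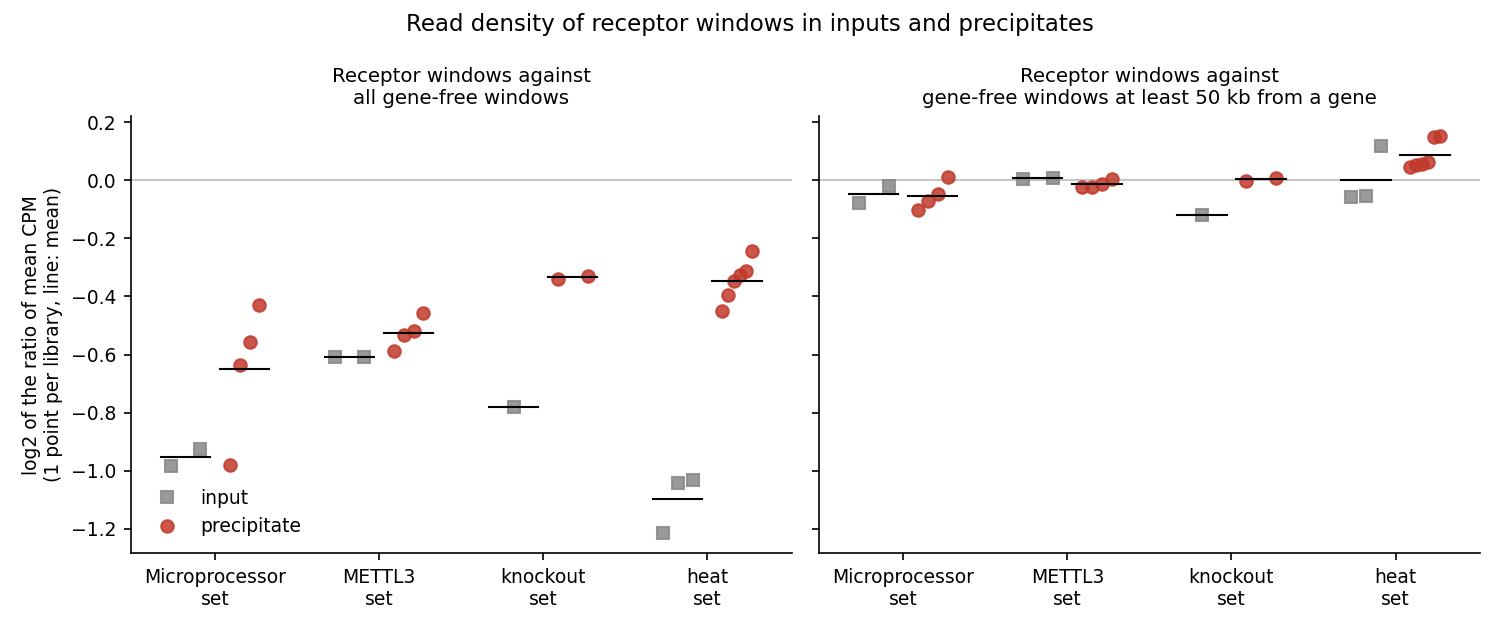
Log2 ratio of mean CPM in receptor windows over all gene-free windows (left) or over gene-free windows at least 50 kb from a gene (right), 1 point per library, inputs as squares, precipitates as circles, lines at the means. On the left the precipitates average -0.47 and the inputs -0.90, with the Dicer precipitate among the inputs; on the right both kinds of library lie near 0.

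Within single sets the comparison with all gene-free windows was limited by the number of libraries. In the heat set the difference was 0.75 (6 precipitates, 3 inputs; exact permutation test, p = 0.0119, the smallest possible). It was 0.30 in the Microprocessor set (p = 0.267) and 0.085 in the METTL3 set (p = 0.2), where the smallest possible exact permutation p is 0.0667, and 0.44 in the knockout set (p = 0.333, the smallest possible). Title and source name agree for 14 libraries, of which 8 precipitates and 4 inputs in 3 sets could be compared. With these alone the difference against all gene-free windows was 0.47 (exact permutation test, p = 0.0148, smallest possible 0.00741). Against remote gene-free windows, receptor windows gained more in every precipitate of the heat and knockout sets, by a log2 of 0.03 to 0.13. The precipitates in which they gained less than remote windows were all in the METTL3 and Microprocessor sets.

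The 3 receptor families differed in input level, and over all sets each gained on the gene-free windows taken as a whole. For Dicer, Olfr windows were at a log2 of 0.06 over input, Vmn1r at -0.06 and Vmn2r at -0.03. Mean input CPM per window was 0.865 for Olfr, 0.516 for Vmn1r and 0.486 for Vmn2r. Against all gene-free windows, precipitates exceeded inputs by 0.35 for Olfr, 0.46 for Vmn1r and 0.50 for Vmn2r on the log2 scale (exact permutation tests within sets, adjusted p = 0.000165 each). Over input, METTL3 at 37 °C in the heat set stood at log2 values of 0.93 for Olfr, 1.26 for Vmn1r and 1.30 for Vmn2r, and the METTL3 set at 0.20, 0.26 and 0.28 (SD 0.08 to 0.09, n = 4 precipitates). The families with the lower input density thus had the higher ratios in both sets of METTL3 libraries. The differences between families were not tested. The 61 receptor windows that share a window with an expressed gene held 1.80 CPM in input and stood at 0.54 in the heat set, against 1.14 for the 3353 windows with no other gene.

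The same order appeared along the distance from genes. Gene-free windows under 10 kb from a gene held 1.81 CPM in input and stood at a log2 of -0.004 over input for METTL3 at 37 °C in the heat set. At 10 to 50 kb they held 1.35 CPM and stood at 0.29, at 50 to 200 kb 0.801 CPM and 0.92, and at 200 kb or more 0.367 CPM and 1.47. Receptor windows, with 0.686 CPM in input and 1.06 over input, lay between the classes at 50 to 200 kb and at 200 kb or more. In the METTL3 set the values were 0.09, 0.12, 0.24 and 0.26 along the same distances and 0.23 in receptor windows. For Drosha they were -0.007, 0.17, 0.63 and 0.99, with receptor windows at 0.77, and for Dicer they stayed between 0.01 and 0.07, with receptor windows at 0.02.

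Input density was then matched with the inputs of the other sets, so that the windows were not ranked on libraries that enter the ratio. All windows with a read in the Microprocessor and knockout set inputs were split into 10 equal classes by CPM, and 63.5% of receptor windows lay in the lowest 3, against 40.1% of gene-free and 8.67% of expressed-gene windows. Within a class, receptor and gene-free windows of the METTL3 set differed by a log2 of 0.014, 0.053 and 0.039 in the lowest 3 classes, by -0.025 in class 5 and by -0.18 in class 7 (89 receptor windows). The heat set difference was 0.42 in the lowest class (909 receptor windows), 0.23 in class 2 (819), 0.071 in class 3 (569) and -0.066 in class 4 (464). In the classes above it lay between -0.12 and 0.084. Each class also spans a range of input density, so receptor and gene-free windows in 1 class may still differ within it.

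**Figure D3:**
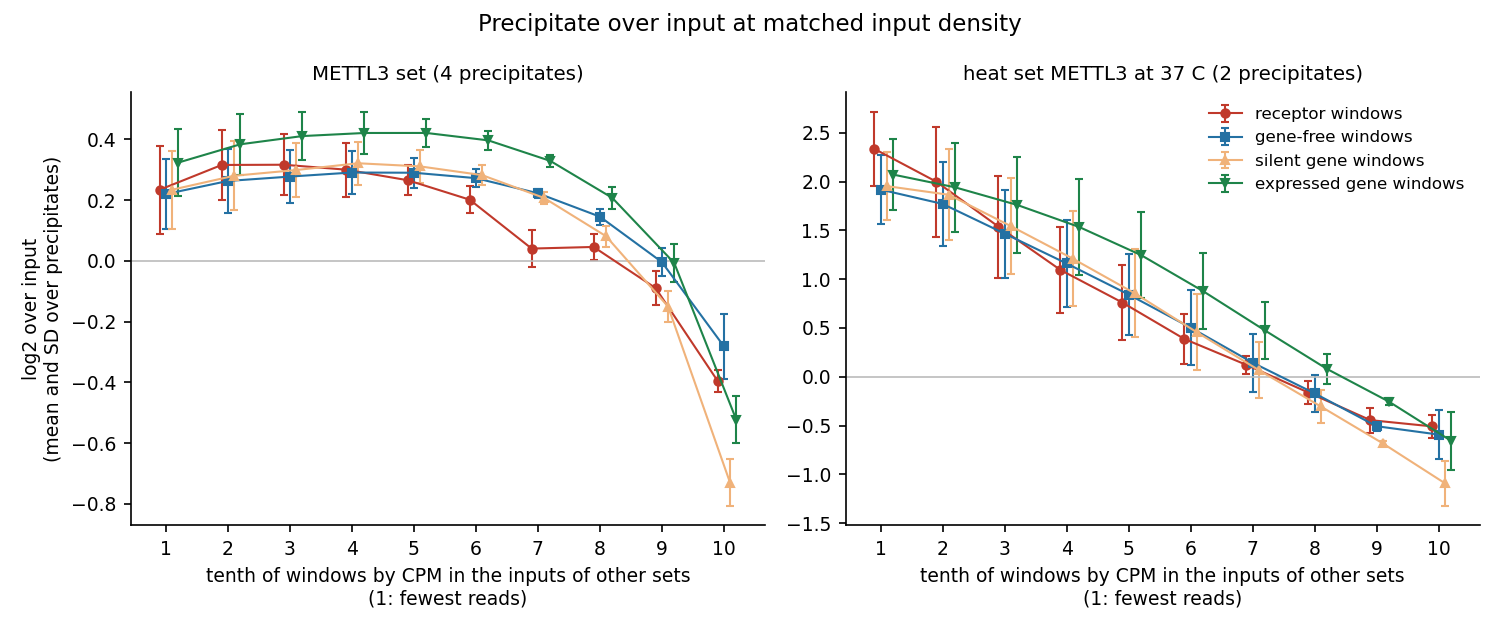
Log2 of METTL3 precipitates over input (y axis, mean and SD over precipitates) in 10 equal classes of windows ranked by CPM in the inputs of other sets (x axis, 1 is the lowest), for 4 classes of window. In the heat set (right) all 4 classes fall together from the lowest to the highest class, and receptor windows exceed gene-free windows by 0.42 in the lowest.

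At gene starts, the ratio over input differed between classes of promoter composition. Receptor genes with 45 to 55% A and T in the promoter (80 start windows, 2.40 CPM in input) stood at -0.41 for METTL3 at 37 °C in the heat set. Those with 55 to 60% (177 windows) stood at 0.66, those with 60 to 65% (435) at 1.36, those with 65 to 70% (398) at 1.67 and those with 70% or more (170) at 1.76. Other silent genes stood at -0.77 under 35%, at -0.84 from 35 to 45% and at -0.58, -0.004, 0.48 and 0.92 in the classes from 45 to 70%, and 28 windows at 70% or more stood at 0.55 (-0.16 in the METTL3 set). In the METTL3 set, receptor genes were at -0.10 ± 0.07 in the class from 45 to 55%, at 0.23 ± 0.04 in the next and at 0.33 ± 0.09 at 60 to 65%, where other silent genes were at 0.12 ± 0.05 (SD, n = 4 precipitates). Above that the receptor genes did not go higher, with 0.27 ± 0.12 at 65 to 70% and 0.28 ± 0.12 at 70% or more. At 65 to 70% receptor genes and other silent genes (0.26 ± 0.07) of the METTL3 set overlapped. In the same class Drosha stood at 1.14 in receptor genes and 0.67 in other silent genes, and Dicer at 0.04 and 0.06. In the same class of promoter composition the receptor windows still held fewer input reads, 0.601 CPM against 0.843 at 65 to 70%. Composition was taken from the 300-base promoter, and that of the whole 5 kb window was not measured. The part of composition and of input density in these values was not tested.

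**Figure D4:**
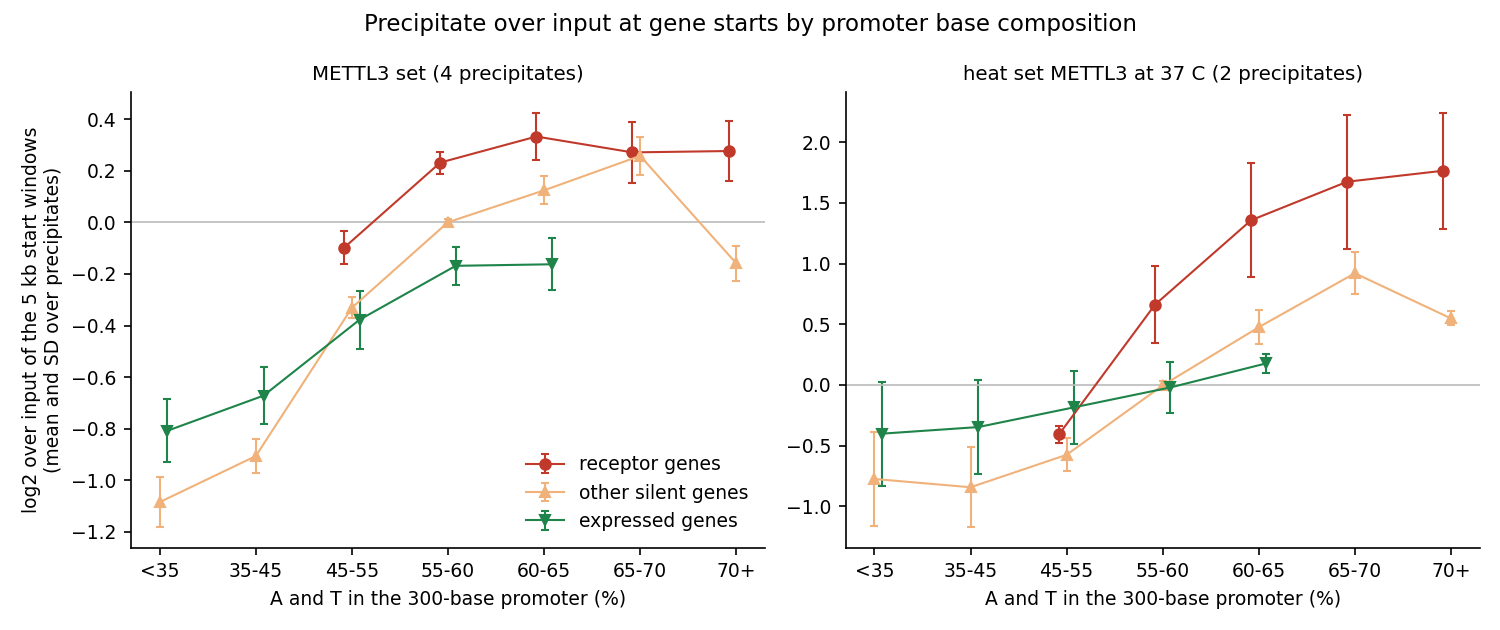
Log2 of METTL3 precipitates over input in the 5 kb windows at gene starts (y axis, mean and SD over precipitates) by share of A and T in the 300-base promoter (x axis), for receptor, other silent and expressed genes. Receptor genes run from -0.41 to 1.76 in the heat set (right) and from -0.10 to 0.33 in the METTL3 set (left).

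Window by window, few receptor windows passed the test in the METTL3 set. Windows were tested in edgeR by quasi-likelihood (4 precipitates, 2 inputs, TMM scaling, Benjamini-Hochberg adjusted p below 0.05), and 3007 of 3616 receptor windows reached the mean of 10 counts per library that the test required. Of them 64 were higher in the precipitates and 128 lower, or 2.13% and 4.26%, against 4.14% and 12.5% of all windows tested. Both shares in receptor windows were below those of all windows, and remote gene-free windows had 2.72% higher and 3.87% lower. The split depended on scaling: with library totals alone, 261 were higher and 72 lower (63700 and 40780 of all 477127 windows), while the median over all windows moved from 0.05 to 0.26 and that of receptor windows from 0.14 to 0.35. DESeq2 called 8 higher and 68 lower (6387 and 45247 of all windows). Without the clone 1 input the median log2 fold change was 0.12 in receptor windows and 0.03 over all windows. Without the clone 2 input it was 0.15 and 0.04.

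The heat set gave many more calls for METTL3 at 37 °C against input. Of 3188 receptor windows tested, 1449 were higher and 115 lower, or 45.5% and 3.61%, against 20.8% higher and 19% lower among all windows tested. Remote gene-free windows had 38.1% higher and 3.49% lower. The median log2 fold change was 1.13 in receptor windows, 0.95 in remote gene-free windows, 0.46 in all gene-free windows and -0.35 in expressed-gene windows, beside 0.12 over all windows. With library totals alone it was 0.56 over all windows. There 1602 receptor windows were higher and 33 lower (125756 and 46531 of all 493877 windows). Per family, 854 of 1859 tested Olfr windows were higher, 142 of 336 Vmn1r and 454 of 994 Vmn2r. Fits without 1 of these libraries left 1 library in its group, and their counts are given only as ranges below. A count of windows that passed the depth filter is not a count of all members, since the other receptor windows were too shallow. In both sets the filter averaged precipitates and inputs, with more precipitates than inputs, so a window of low input could pass through its precipitates. With all windows that held any count, 1467 of 3463 receptor windows were higher and 115 lower in the heat set (104165 and 93853 of all 507320 windows).

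Levels after 1 h at 42 °C were compared with those at 37 °C in receptor and remote gene-free windows. METTL3 in receptor windows was at 1.19 times its 37 °C level in H4 and 1.11 in H5, and DGCR8 at 1.35, and the log2 difference from remote gene-free windows was -0.0035, 0.0048 and -0.0089. No receptor window passed the edgeR test for METTL3 at 42 °C against 37 °C in either direction, against 0% of all windows higher and 0.000202% lower; 66 of 3188 receptor windows and 13456 of 493877 windows in all had an unadjusted p below 0.05. DESeq2 called 1 receptor window lower of 1414 in all, and edgeR with the line as a block 3 of 768. Their median log2 fold change was 0.14, against 0.12 in remote gene-free windows and -0.16 in expressed-gene windows. In DGCR8, receptor windows passed a 2-fold rise from 37 °C to 42 °C in 818 of 3013 windows with at least 50 counts in the pair (27.1%), against 17.5% of all windows. The share was 25.3% in remote gene-free windows, 21.7% in windows of other silent genes and 6.27% in expressed-gene windows.

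In METTL3KO cells the mean CPM of DGCR8 in receptor windows was 0.998 times that in the wild type (1 library each, no replicate check). CPM is a share of the reads of a library, so a change common to all windows would not show in it. Of 2600 receptor windows with at least 50 counts in the pair, 38 were more than 2-fold higher and 42 more than 2-fold lower in the knockout, and the shares of 1.46% and 1.62% stood beside 0.555% and 1.24% of all windows. With at least 100 counts both receptor shares were 0.454%, beside 0.311% and 0.544% of all windows. Over input, 22.8% of 1687 receptor windows were past 2-fold in the METTL3KO cells (7.12% of all windows) and 25.4% of 2272 in the wild type (8.57%). Remote gene-free windows had shares of 18.2% and 21.5%. With at least 100 counts the receptor shares were 2.63% of 190 (0.755% of all windows) and 3.84% of 365 (1.18%). The remote shares were then 2.53% and 3.91%.

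In the other single-library comparisons the shares past 2-fold over input were 18.5% of 1719 receptor windows for DGCR8 after formaldehyde (10.2% of all windows), 36.4% of 2410 after DSG (19.1%), 29.2% of 1584 at 37 °C in the heat set (16.4%) and 65.7% of 3042 at 42 °C (31.5%). For Drosha the share was 38.8% of 810 (15.1%) and for Dicer 1.30% of 1467 (0.691%). In remote gene-free windows the shares were 22.9%, 35.8%, 27.2% and 60.5% for these DGCR8 libraries, 36.5% for Drosha and 1.69% for Dicer. A pair needed 50 counts, which a window of low input reaches through its precipitate, and with at least 100 counts the receptor shares fell to 4.31%, 14.6%, 10.8%, 62.8%, 14.3% and 0.425%. Over all windows the shares at 100 counts were 2.61%, 9.35%, 9.26%, 28.3%, 5.94% and 0.191%. Remote gene-free windows then had 6.51%, 16.2%, 6.97%, 58.1%, 14.8% and 0.529%. For DGCR8 at 37 °C in the heat set, 18.4% of the receptor windows with 100 counts were past 2-fold lower, and their median log2 ratio was -0.17 in place of 0.43 at 50 counts.

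Clusters, runs of receptor windows with gaps of at most 1 Mb, differed widely. There were 100, of which 27 held at least 50 windows and 3138 windows together. For METTL3 at 37 °C in the heat set all 27 lay above the gene-free value of 0.31, from 0.71 to 2.12 on the log2 scale, and 23 of 27 lay above the gene-free value of 0.14 in the METTL3 set. DGCR8 was above its gene-free value in 27 clusters, Drosha in 25 and Dicer in 15. These values are for all gene-free windows, and the clusters were not counted against remote gene-free windows. The remote windows stood higher, at 1.24 in H4 and 0.74 in H5 at 37 °C. In the METTL3 set they stood at 0.33 and 0.17 in clone 1 and at 0.24 and 0.24 in clone 2. The largest cluster, 362 Olfr windows with 293 genes at chr2:85330001-90405000, stood at 1.78 in the heat set (1.44 and 2.13 in the precipitates), at 0.21 ± 0.13 in the METTL3 set (SD, n = 4), at 1.32 for Drosha and at 0.11 for Dicer. The cluster of 29 Vmn1r and 209 Vmn2r windows at chr17:17700001-21325000 (237 windows) was at 1.90 and 0.38 ± 0.14. The Olfr cluster at chr9:37710001-40190000 (161 windows) was at 1.56 and 0.27 ± 0.13. By contrast the mixed cluster at chr7:5145001-13245000 (325 windows of all families) was at 0.96 and 0.09 ± 0.08, and the Olfr cluster at chr7:102475001-105370000 (211 windows, 0.908 CPM in input) at 0.82 and 0.20 ± 0.05.

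**Figure D5:**
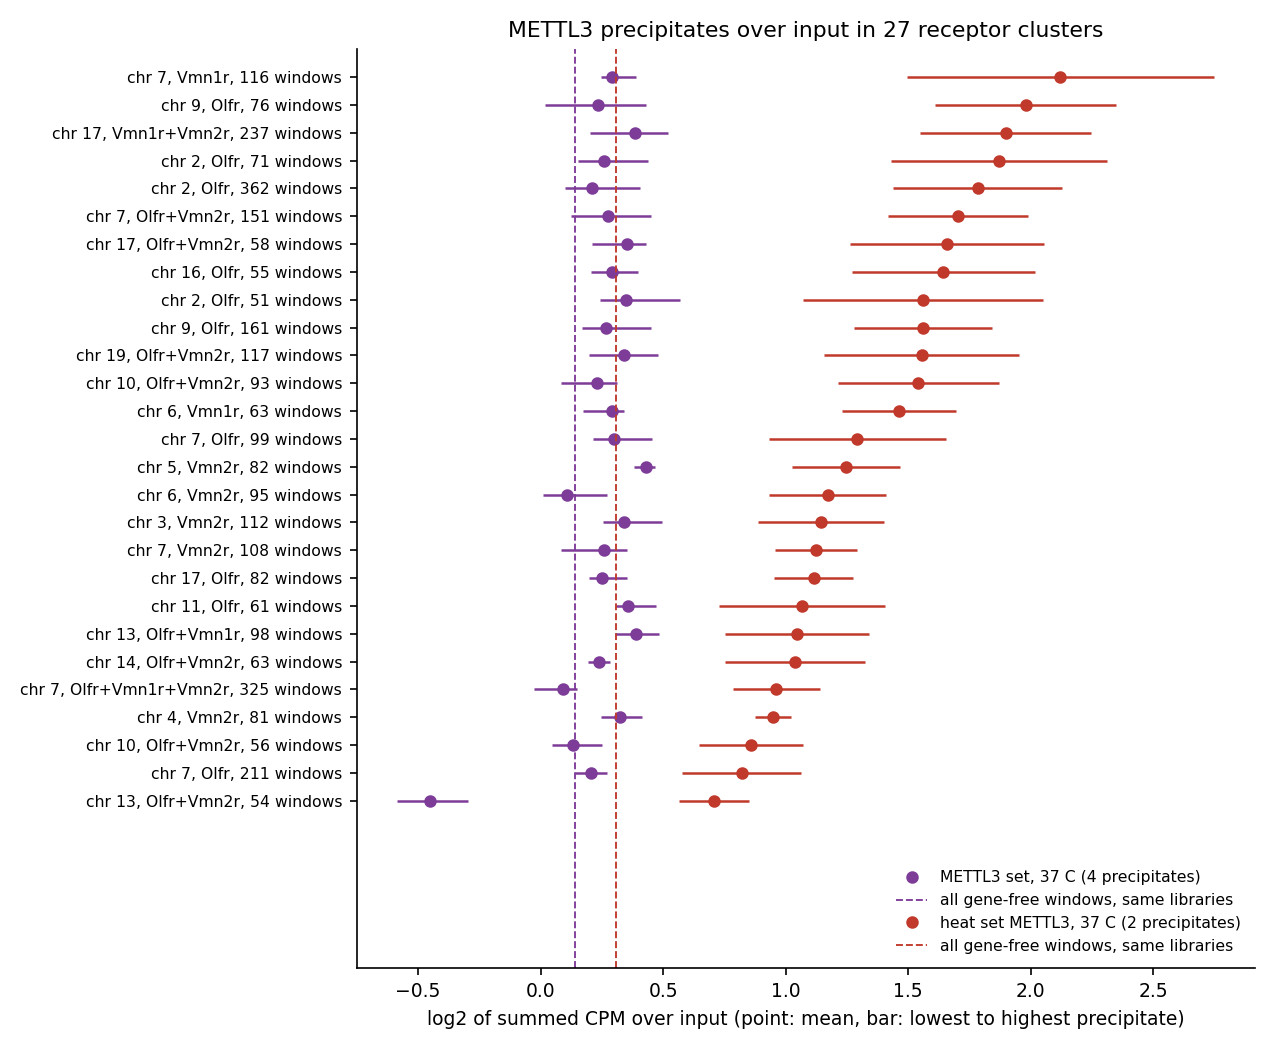
Log2 over input of METTL3 precipitates (x axis) in the 27 receptor clusters of at least 50 windows, ordered by the heat set; points are means, bars run from the lowest to the highest precipitate, dashed lines mark all gene-free windows. The heat set runs from 0.71 to 2.12 and the METTL3 set from -0.45 to 0.43.

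The extremes of the METTL3 set were both Vmn2r clusters. The highest was at chr5:108795001-109735000 (82 windows), at 0.43 ± 0.04 with all 4 precipitates between 0.38 and 0.47. The lowest was at chr13:65140001-66875000 (51 Vmn2r and 3 Olfr windows), at -0.45 ± 0.12, with precipitates from -0.58 to -0.30, and it was also below input for Drosha (-0.27). It was above input in the heat set, at 0.71. The Vmn1r cluster at chr7:20100001-24060000 was the highest of the heat set at 2.12, on an input of only 0.0848 CPM per window, and its precipitates ranged from 1.49 to 2.75.

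Among single windows with ordinary input, the highest METTL3 fold change was at Olfr1222, an olfactory receptor of the chromosome 2 cluster (chr2:89125001-89130000). It held 34, 22, 26 and 21 counts in the precipitates and 4 and 3 in the inputs, so that all precipitates lay above both inputs (log2 fold change 1.99, SE 0.50; edgeR adjusted p = 0.0014). The same window rose in the heat set at 37 °C (2.16, adjusted p = 0.00399), with 65 and 67 counts against 6 and 16. Vmn1r215 (chr13:23075001-23080000) held 37, 27, 46 and 24 counts against 5 and 6 (1.72, SE 0.43; edgeR adjusted p = 0.00114) and did not pass in the heat set (0.87, adjusted p = 0.169). Vmn1r-ps87 (chr7:27980001-27985000), which shares its window with another gene, held 150, 147, 217 and 117 counts against 28 and 21 (1.82, SE 0.24; edgeR adjusted p = 2.17e-10) and passed in the heat set (1.56, adjusted p = 0.0125).

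The lowest windows had more input reads than most receptor windows. Vmn2r-ps95 (chr13:65350001-65355000), a pseudogene inside the lowest cluster, held 31, 28, 34 and 35 counts in the precipitates against 108 and 73 in the inputs (-2.35, SE 0.20; edgeR adjusted p = 1.88e-20). Vmn1r3 (chr4:3180001-3185000) held 52, 42, 39 and 44 against 96 and 136 (-2.32, SE 0.20; edgeR adjusted p = 1.01e-20). Vmn1r238 held 27, 22, 27 and 18 against 61 and 66 (-2.32, SE 0.24; edgeR adjusted p = 5.87e-16). All 3 were also lower than input in the heat set at 37 °C (-1.01, -1.53 and -1.64; edgeR adjusted p = 0.0365, 0.00316 and 0.0402). The windows with the most input reads in each family went the same way in the METTL3 set: that of Olfr279 and Olfr278-ps1 (chr15:98495001-98500000, 8.29 CPM in input) at -2.11, that of Vmn2r-ps16 (chr4:146455001-146460000, shared with another gene, 14.2 CPM) at -0.91 and that of Vmn1r1 (chr1:182155001-182160000, 4.25 CPM) at -0.61 (edgeR adjusted p = 1.17e-20, 7.71e-05 and 0.0108).

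Of the receptor genes chosen by name, 9 could be placed by their gene start. Olfr17 (64.3%), the P2 receptor of gene-targeting studies, held 64, 34, 39 and 39 counts in the METTL3 set precipitates against 23 and 16 (0.31, SE 0.29; edgeR adjusted p = 0.523), and 135 and 96 against 18 and 41 in the heat set (1.55, SE 0.41; adjusted p = 0.00661). Olfr73 (67.7%) held 23, 6, 11 and 10 against 12 and 6, which overlap, and 68 and 64 against 0 and 20 in the heat set (2.36, SE 0.68; edgeR adjusted p = 0.0107). Olfr16 (60% A and T) and Olfr160 (54.0%, with no AT-only run) did not pass in the METTL3 set (0.34 and 0.60) and were higher in the heat set (1.12 and 1.47; edgeR adjusted p = 0.0277 and 0.00919). Olfr544 (48.3%, 3.84 CPM in input) was below input in both sets (-0.66 and -1.24; edgeR adjusted p = 0.00924 and 0.0256). Vmn1r51 (49.0%), Vmn2r26 (59.3%) and Vmn2r1 (60.7%) passed in neither set (METTL3 set 0.94, -0.29 and -0.53; heat set 0.29, 0.33 and 0.65), and Vmn2r116 (58.0%) was too shallow to test in the METTL3 set and did not pass in the heat set (1.17).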

How the data were processed

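Chromatin and RNA were counted in 24 ChIP and 35 RNA libraries. The deposited tables hold raw read counts per 5 kb window or per gene, and the submitters' processing notes name Bowtie and the mouse build mm10. The aligner's version, the treatment of multi-mapping reads and any removal of duplicates are not given in the sources used here. From the authors' counts, CPM was computed over each library's used windows. Groups followed the sample titles. The column of DGCR8 after formaldehyde was assigned by elimination among the titles of its set. Gene spans came from a RefSeq table of GRCm38.p6, the assembly that mm10 stands for, and a gene was called silent under 1 CPM in parental cells at 37 °C.

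Ratios of class means were compared by exact permutation of precipitate and input labels within sets. Windows with a mean of 10 counts per library were tested with edgeR 4.0.16 (quasi-likelihood F test, TMM), checked on simulated counts, with DESeq2 1.42.0 as alternative. The heat 42 °C against 37 °C comparison came from the same fit as 37 °C against input. Factors with 1 library were described by ratios with a pseudocount of 1 and at least 50 counts in the pair. Promoter sequences are RefSeq's for GRCm38.p6, matched by symbol.

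Same-numbered METTL3 libraries came from the same clone or line, which pairs them. Their deviations correlated at 0.27, 0.25 and 0.16 in the heat set and at 0.01 in the METTL3 set. No replicates held identical counts, and pairs differed by more than sampling noise (chi-squared per window 1.39 to 14.2). Members and gene lists were chosen with earlier results of these data known. The named windows were the 3 highest and 3 lowest METTL3 fold changes within 5-fold of the median input, the highest input per family, the starts of 13 receptor genes chosen by name (9 could be placed), the 5 largest clusters and the extreme clusters.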

Additional observations from a re-analysis of the deposited data

Results flagged for a closer look

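The 23 receptor windows on chromosome Y, all outside the comparisons above, had a higher mean CPM in the precipitates than in the inputs of 2 sets. In the knockout set their mean CPM was 0.200 in the lower and 0.201 in the higher precipitate, against 0.117 in the input. In the heat set the lowest of 6 precipitates was at 0.104 and the highest at 0.226, against 0.0214 to 0.0532 in the 3 inputs. In the METTL3 set precipitates (0.114 to 0.176) and inputs (0.124 to 0.158) overlapped, as they did in the Microprocessor set (0.0698 to 0.195 and 0.0681 to 0.0922). Copy number and mapping of these repeated genes were not tested.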

How the results depend on the processing

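Of 152 alternatives, 118 were classed as unchanged. For a test this meant the same direction and side of the threshold, and for a count a move of at most 1.5 times. For the DGCR8, Dicer and Drosha differences it meant a value within the SD of the 4 DGCR8 precipitates (0.13), whatever its sign. Dicer, for example, turned from 0.003 to -0.03 against remote gene-free windows. Against gene-free windows at least 50 kb from a gene, the difference over all sets was 0.045 (exact permutation p = 0.087) and the METTL3 set turned to -0.0203 (p = 0.2, exact), DGCR8 fell to 0.037 and Drosha to 0.089. Against all gene-free windows, medians over windows put DGCR8 at 0.29 and Drosha at 0.31. Leaving out 1 library, again against all gene-free windows, gave 0.377 to 0.423 over all sets and 0.0628 to 0.106 in the METTL3 set. Without the Dicer precipitate and the METTL3 inputs of the heat set, chosen after seeing the data, it was 0.41 (exact permutation p = 0.000317). METTL3 windows called higher and lower were 261 and 72 with library totals and 8 and 68 with DESeq2, and ranged from 14 to 78 and from 55 to 131 without 1 library. In the heat set at 37 °C they ranged from 857 to 1694 higher and from 41 to 157 lower, with 33 lower under library totals. At 42 °C against 37 °C, 0 to 1 were lower without 1 library, 1 with DESeq2 and 3 with the line as replicate block. The block changed no other call beyond 1.5 times: METTL3 had 67 higher and 125 lower, the heat set at 37 °C 1596 and 144. Several fits without 1 library left 1 library in a group, so their ranges of counts show only how far the calls moved. Causes were not tested. Single windows with under 50 counts in a pair, and the 119 without reads, could not be described.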

Other observations

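Genes that act on receptor loci in sensory neurons were partly expressed in the parental ES cells at 37 °C. Of 9 regulators of receptor choice, 4 reached 1 CPM: Lbr, the lamin B receptor (276 CPM), Kdm1a, the histone demethylase LSD1 (183 CPM), Ldb1, the cofactor of Lhx2 (63.5 CPM), and Ebf1 (2.39 CPM). Lhx2 itself, a homeodomain factor of olfactory neurons, was at 0.268 CPM, and Emx2 at 0.0772 CPM. All 11 heterochromatin genes were expressed, among them Trim28 (1031 CPM), Cbx5 (777 CPM) and Setdb1 (151 CPM). Of 4 measured genes of vomeronasal signalling, 2 reached 1 CPM: Gnai2 (144 CPM), a G-alpha subunit common to many cell types, and Ano1 (1.07 CPM). Of the 12 measured receptor genes chosen by name, Vmn2r1 alone had counts in the parental libraries at 37 °C.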
